A study of Mus musculus with 32 samples.

Results

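A set of 10 genes of the NRF2 response and of glutathione synthesis were followed through 32 RNA libraries of mouse chondrocytes. They were Nfe2l2, which encodes NRF2 itself, the enzyme genes Nqo1, Hmox1, Gclc, Gclm, Gss, Gsr, Txnrd1 and Srxn1, and the transporter gene Slc7a11. They were chosen by symbol, with earlier results of these data known, and were 10 of the 41388 genes counted. Counts of them set beside shares of all genes are thus a description. All 10 were measured in every library, with read counts between 307 (Gss) and 46276 (Hmox1), so all passed the filter on low counts in every comparison. Their positions in GRCm38 are Nfe2l2 (chr2:75675513-75704641, minus strand), Slc7a11 (chr3:50364936-50443613, minus strand), Gclc (chr9:77754535-77794485, plus strand), Gclm (chr3:122245557-122269984, plus strand), Gss (chr2:155563181-155592810, minus strand), Gsr (chr8:33652523-33698163, plus strand), Txnrd1 (chr10:82859206-82897724, plus strand), Srxn1 (chr2:152105516-152111376, plus strand), Hmox1 (chr8:75093591-75100596, plus strand) and Nqo1 (chr8:107388225-107403206, minus strand).

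NRF2 is a transcription factor that is held at a low level in unstressed cells because KEAP1, an adaptor of the CUL3 ubiquitin ligase, marks it for degradation. Oxidants and electrophiles modify KEAP1, NRF2 then accumulates, pairs with a small MAF protein and binds antioxidant response elements near its target genes, where BACH1 competes for the same sites. Glutathione is made from cystine that enters through the SLC7A11 exchanger, joined to glutamate by glutamate-cysteine ligase (the catalytic subunit GCLC with the modifier GCLM) and to glycine by glutathione synthetase (GSS), and its oxidised form is reduced again by glutathione reductase (GSR) with NADPH. RNA levels of Nfe2l2 do not measure NRF2 protein, whose amount is set largely by degradation.

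The libraries came from unpassaged primary sternal chondrocytes of newborn C57BL/6 mice, cultured at normoxia. Cells of 3 floxed lines (Ldha f/f, Nfkbiz f/f and Nampt f/f) carried an adenovirus for 24 h that expressed either GFP or the Cre recombinase with GFP, and were then left untreated or given interleukin-1β (IL-1β, 10 ng/mL), an inflammatory cytokine of arthritic joints, for a further 24 h. Wild-type cells received no virus and were left untreated or given IL-1β (10 ng/mL), FX11 (40 µM), an inhibitor of lactate dehydrogenase A, or both for 24 h. Each of the 16 conditions had 2 libraries. The GFP controls carried the floxed alleles and a virus like the Cre cells. No wild-type cells were given Cre virus, so loss of the floxed gene and the Cre virus itself cannot be told apart, and a change seen in all 3 lines cannot be assigned to 1 of the deletions. Ldha encodes the enzyme that turns pyruvate into lactate, Nampt the rate-limiting enzyme of NAD salvage, and Nfkbiz the nuclear protein IκBζ, which IL-1β induces. The labels do not say whether the 2 libraries of a condition came from separate animals or cultures, so p-values measure the spread between these libraries, which may be technical. These are bulk libraries, in which fewer cells with a transcript and less transcript per cell cannot be told apart.

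Read counts over genes ranged from 15830658 to 39959888 per library (median 25363482). Levels are given as CPM, the read count of a gene relative to the TMM-scaled library total, and changes as log2 fold changes with their standard error (SE). The deleted gene fell in its own line after Cre, without IL-1β from 918 and 869 to 118 and 111 CPM for Ldha and from 59.5 and 54.6 to 6.72 and 6.86 CPM for Nampt, and from 16.1 and 17.0 to 9.65 and 8.28 CPM for Nfkbiz. Under IL-1β, Nfkbiz fell from 235 and 229 to 29.5 and 32.3 CPM in its own line, and it was lower with Cre in the other lines too, from 177 and 164 to 69.7 and 66.9 CPM in Ldha f/f and from 202 and 204 to 67.7 and 60.8 CPM in Nampt f/f cells. The summed level of 9 chondrocyte markers was 15088 to 89753 CPM over all libraries. In wild-type cells the collagenase activator Mmp3, which IL-1β induces, stood at 1.06 and 0.808 CPM in the untreated libraries, 1.20 and 2016 in those labelled FX11, 9125 and 0.784 in those labelled IL-1β and 8008 and 661 in those labelled with both. The second library labelled FX11 and the second labelled IL-1β thus went against their labels, and the wild-type fits were also run without them.

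Antioxidant response elements share a core that was searched as TGACNNNGC and TGAGNNNGC, on both strands, from 250 bases before to 50 bases after each RefSeq start (GRCm38.p6). The search also covered the AP-1 letters TGANTCA, which overlap either form where TGAC or TGAG is followed by TCA. Windows were held for 7 of the 10 genes (Nfe2l2, Srxn1, Gss, Slc7a11, Gclm, Nqo1 and Txnrd1), with 3 starts for Txnrd1. At least 1 core was present in 5 of these 7 genes (71.4%), against 27.8% of all 32851 windows and 30.8% of 27025 genes. The matches are printed because this core is the sequence that NRF2 is known to bind. They are written 5′ to 3′ along the gene, with the core in capitals, and a core in capitals that starts with GC is read on the opposite strand.
Nfe2l2 (chr2:75704885-75704913, minus strand, at -240 from the start): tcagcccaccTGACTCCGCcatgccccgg
Srxn1 (chr2:152105356-152105384, plus strand, at -158): tctactgagaGCCGACTCAtcctctctgg
Srxn1 (chr2:152105469-152105497, plus strand, at -45): aaattcacccTGAGTCAGCggccgggcgc
Srxn1 (chr2:152105542-152105570, plus strand, at 28): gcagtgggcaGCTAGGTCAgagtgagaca
Slc7a11 (chr3:50443692-50443720, minus strand, at -97): taatgttggcGCTTTCTCAagctggagtt
Gclm (chr3:122245413-122245441, plus strand, at -134): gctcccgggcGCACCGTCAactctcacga
Txnrd1 (chr10:82859104-82859132, plus strand, at -92 from 1 of its 3 starts): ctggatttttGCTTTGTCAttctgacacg

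Srxn1 alone held 3 cores, and the one at -45 is also an AP-1 match (TGAGTCA), with another AP-1 match at -102. The TGAC form was present in 4 of the 7 genes (57.1%, against 14% of all genes) and the TGAG form in 2 (28.6%, against 19.8%). AP-1 letters were present in 1 of the 7 (14.3%, against 8.97% of genes). In Nqo1 and Gss no core was found in this window. A match of letters is a description and not a site of binding, and sites farther from the start were not searched.

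Per deposited gene length, the genes covered a wide range before any cytokine. This length counts the exon bases of the gene model, for example 3423 for Gclc, 5543 for Gclm, 5915 for Gss and 11245 for Slc7a11. In the 6 GFP libraries without IL-1β the CPM per kilobase of this length (RPKM) had medians of 229 for Hmox1, 42.5 for Nqo1, 39.4 for Txnrd1, 26.3 for Nfe2l2, 24.3 for Srxn1, 15.4 for Gsr, 14.3 for Gclc, 6.87 for Gclm, 3.48 for Slc7a11 and 3.33 for Gss. The ranges of neighbours in this order overlapped for Nqo1 and Txnrd1, Nfe2l2 and Srxn1, Gsr and Gclc, and Slc7a11 and Gss. Of the ligase, the catalytic subunit Gclc (11.4 to 16.0 RPKM) was above the modifier Gclm (4.98 to 7.90 RPKM) with no overlap. In CPM, which is not divided by length, Gclc (38.9 to 54.8) and Gclm (27.6 to 43.8) overlapped in these libraries. With IL-1β the medians rose to 569.5 RPKM for Hmox1, 113 for Txnrd1, 92.2 for Srxn1, 66.0 for Nqo1, 57.0 for Gsr, 47.4 for Nfe2l2, 39.2 for Gclc, 20.2 for Gclm, 16.4 for Slc7a11 and 5.22 for Gss. Txnrd1 and Srxn1 thereby passed Nqo1 in the order of medians. Reads over several of the genes are less certain, since other gene models lie within or across their span. Gm17494 lies opposite Gclm, and Acss2, Gssos1 and Gssos2 lie opposite Gss. On the same strand, Eid3 overlaps Txnrd1, Gm6061 Gclm, Gm24996 Nfe2l2, Gm24727 Gsr and Gm37498 Slc7a11. The strand setting of the counting was not given in the sources used here.

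The first comparison asked what IL-1β did to these genes in floxed chondrocytes that carried GFP and kept their floxed gene. IL-1β raised all 10. Over the 3 lines all 10 were called higher by edgeR's quasi-likelihood test (Benjamini-Hochberg adjusted p at most 0.05, line and library set as covariates, 6 libraries a group), where 28% of the 14283 genes tested were. In all 10 the 6 libraries with IL-1β lay above the 6 without, which was so for 10.5% of genes. The median log2 change of the 10 was 1.40, against -0.01 over all genes, and the largest belonged to the cystine carrier Slc7a11 (2.35) and the smallest to the synthetase Gss (0.61).

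Slc7a11, the gene of the cystine/glutamate exchanger that supplies glutathione synthesis, was at 37.8 and 40.4 in Ldha f/f, 48.4 and 41.4 in Nampt f/f and 21.4 and 22.8 in Nfkbiz f/f cells without IL-1β (CPM). With the cytokine it stood at 189 and 181 in Ldha f/f, 212 and 225 in Nampt f/f and 129 and 122 in Nfkbiz f/f cells. Every treated library was at least 122 CPM and every untreated one at most 48.4, and the log2 change over lines was 2.35 ± 0.06 (SE, adjusted p = 3.4e-15). By line the fold was 4.72 in Ldha f/f, 4.87 in Nampt f/f and 5.69 in Nfkbiz f/f cells.

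Both subunits of glutamate-cysteine ligase, the rate-limiting step, rose. Gclc, the catalytic subunit, went from 53.7 and 48.5 in Ldha f/f, 54.8 and 49.5 in Nampt f/f and 38.9 and 43.7 in Nfkbiz f/f cells to 172 and 155 in Ldha f/f, 138 and 131 in Nampt f/f and 121 and 117 in Nfkbiz f/f cells (CPM). Its 2 groups were far apart in each line, with a log2 change over lines of 1.53 ± 0.05 (SE, adjusted p = 1.5e-13). Gclm, the modifier subunit, went from 42.0 and 43.8 in Ldha f/f, 37.9 and 38.3 in Nampt f/f and 27.6 and 27.9 in Nfkbiz f/f cells to 114 and 111 in Ldha f/f, 122 and 113 in Nampt f/f and 50.7 and 56.7 in Nfkbiz f/f cells (CPM). All 6 treated libraries of Gclm lay above all untreated ones, although those of Nfkbiz f/f cells were the lowest of the 6, and the log2 change was 1.35 ± 0.08 (SE, adjusted p = 4.6e-10). Gss, which adds glycine in the last step, moved least, from 16.9 and 17.2 in Ldha f/f, 20.9 and 18.4 in Nampt f/f and 25.1 and 23.7 in Nfkbiz f/f cells to 31.1 and 30.8 in Ldha f/f, 32.7 and 31.0 in Nampt f/f and 28.6 and 29.2 in Nfkbiz f/f cells (CPM). Over lines its log2 change was 0.61 ± 0.08 (SE, adjusted p = 7e-06). In Nfkbiz f/f cells alone the change of Gss did not pass the test (0.26 ± 0.11 SE, adjusted p = 0.098).

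Among the enzymes that reduce oxidised thiols, Gsr, which regenerates glutathione, was at 45.1 and 48.3 in Ldha f/f, 44.2 and 40.6 in Nampt f/f and 29.0 and 23.7 in Nfkbiz f/f cells without IL-1β and at 156 and 160.0 in Ldha f/f, 162 and 158 in Nampt f/f and 121 and 122 in Nfkbiz f/f cells with it (CPM). No treated library was near an untreated one, and the log2 change over lines was 1.96 ± 0.07 (SE, adjusted p = 3.8e-13). Srxn1, the sulfiredoxin that repairs overoxidised peroxiredoxins, was at 66.1 and 71.0 in Ldha f/f, 71.3 and 73.1 in Nampt f/f and 53.9 and 56.1 in Nfkbiz f/f cells without and at 257 and 263 in Ldha f/f, 309 and 291 in Nampt f/f and 194 and 197 in Nfkbiz f/f cells with the cytokine (CPM). The groups of Srxn1 were separate in every line and the log2 change over lines was 1.95 ± 0.05 (SE, adjusted p = 3.8e-15). Txnrd1, the cytosolic thioredoxin reductase, was at 131 and 138 in Ldha f/f, 146 and 156 in Nampt f/f and 109.6 and 121 in Nfkbiz f/f cells without and at 374 and 402 in Ldha f/f, 454 and 479 in Nampt f/f and 261 and 253 in Nfkbiz f/f cells with it (CPM). Its highest untreated library was Nampt f/f and its lowest treated library Nfkbiz f/f, and the log2 change was 1.45 ± 0.06 (SE, adjusted p = 7.9e-12).

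Hmox1, which breaks down heme, was the most abundant of the 10 per length and was at 466 and 425 in Ldha f/f, 502 and 490.1 in Nampt f/f and 591 and 647 in Nfkbiz f/f cells without IL-1β. With IL-1β it reached 1238 and 1224 in Ldha f/f, 1472 and 1365 in Nampt f/f and 1092 and 1092 in Nfkbiz f/f cells (CPM), and the log2 change over lines was 1.28 ± 0.09 (SE, adjusted p = 2.8e-09). The Nfkbiz f/f libraries had the highest Hmox1 before the cytokine and the lowest after it. Nqo1, a quinone reductase often used as a readout of NRF2, was at 66.7 and 65.2 in Ldha f/f, 58.6 and 56.7 in Nampt f/f and 70.7 and 67.2 in Nfkbiz f/f cells without and at 102 and 103 in Ldha f/f, 94.0 and 96.0 in Nampt f/f and 107 and 119 in Nfkbiz f/f cells with it (CPM). Its change was smaller, 0.70 ± 0.04 (SE, adjusted p = 3.9e-10), and the groups still did not overlap. Nfe2l2 itself was at 121 and 99.4 in Ldha f/f, 109 and 100.4 in Nampt f/f and 82.4 and 80.8 in Nfkbiz f/f cells without and at 217 and 185 in Ldha f/f, 179.9 and 180.0 in Nampt f/f and 147 and 142 in Nfkbiz f/f cells with IL-1β (CPM), a log2 change of 0.84 ± 0.04 (SE, adjusted p = 4.6e-11). Keap1, its inhibitor, ranged from 51.8 to 58.9 CPM without and from 52.4 to 60.9 CPM with the cytokine, and its change of 0.04 ± 0.04 (SE, adjusted p = 0.42) did not pass the test.

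By line, 10 of 10 were called higher in Ldha f/f cells (14.5% of all genes), 10 of 10 in Nampt f/f cells (17.7%) and 9 of 10 in Nfkbiz f/f cells (15.2%), Gss being the exception. The call of Nqo1 in Nfkbiz f/f cells was lost without the second library of Nfkbiz f/f cells with GFP and IL-1β (adjusted p = 0.055). The sample titles number the libraries in 2 series, treated here as 2 sets, and within each set all 10 were higher with IL-1β in Ldha f/f and in Nampt f/f cells, while the Nfkbiz f/f libraries all belonged to 1 set. The summed level of the 9 chondrocyte markers moved with the cytokine, with 68843 to 85644 CPM without and 26832 to 31571 CPM with it. The sum of 7 macrophage markers was 12.1 to 19.3 CPM without and 24.0 to 44.7 CPM with it. That of 6 fibroblast and perichondrium markers was 943 to 5159 CPM without and 896 to 4161 CPM with it. Their part in the result was not tested.

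**Figure D1:**
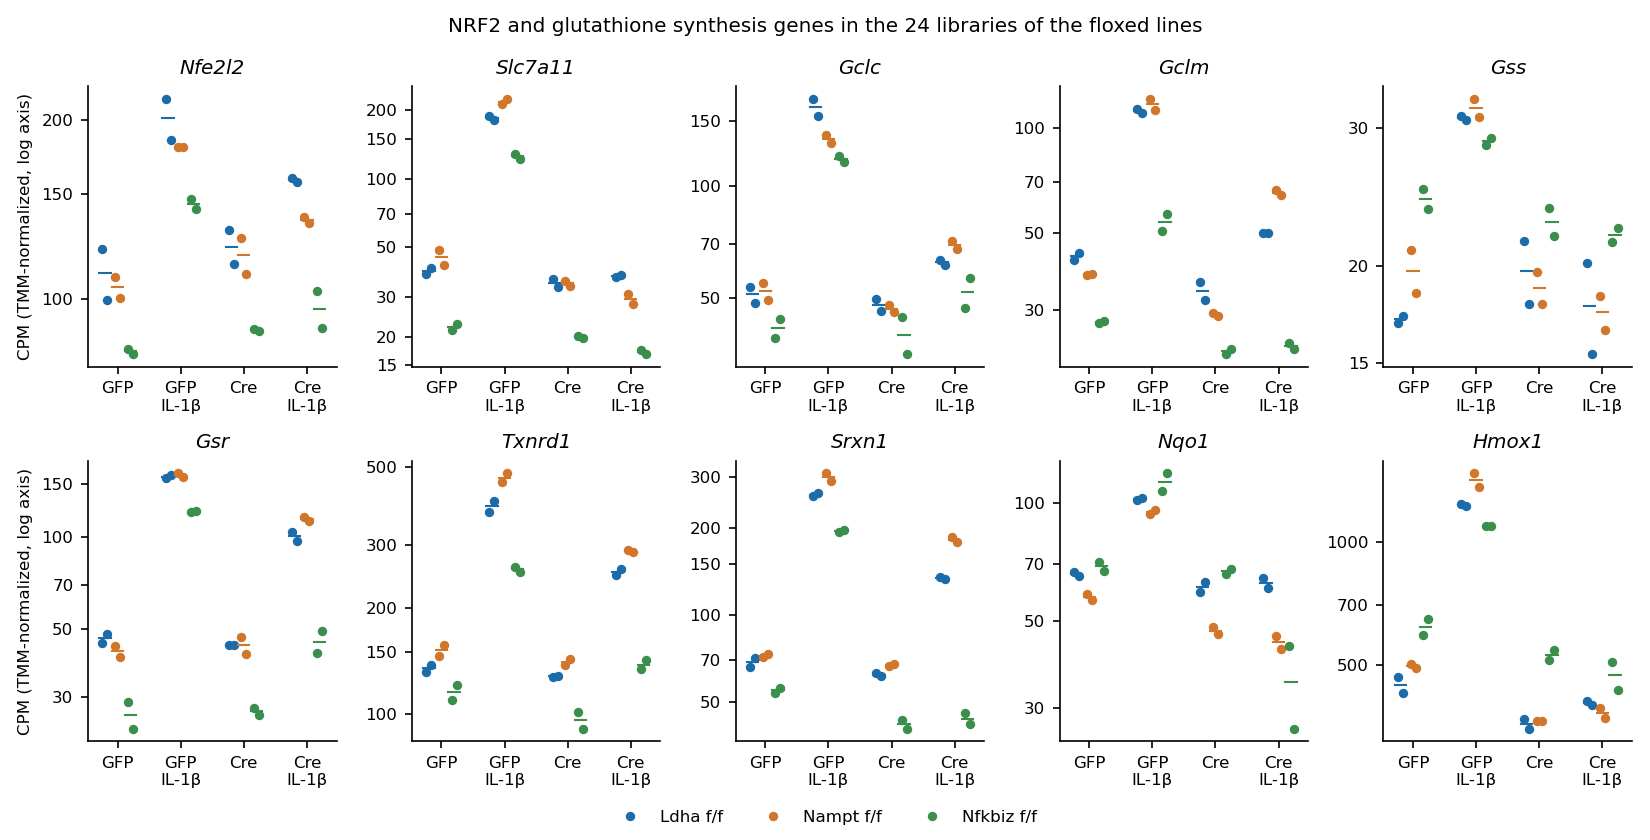
Level of each of the 10 genes (TMM CPM, log axis) in every floxed library, by condition. Each point is 1 library, coloured by line, and the bars are condition means. For all 10 genes the 6 libraries with GFP and IL-1β lie above the 6 with GFP alone, and the libraries with Cre and IL-1β lie lower than those with GFP and IL-1β within each line.

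Cre alone, without IL-1β, moved these genes little. Over the 3 lines 6 of the 10 were called lower and Nfe2l2 was called higher (7 in either direction, against 17.8% of all genes tested, 8.21% lower and 9.59% higher). In none of the 10 did the 6 Cre libraries separate from the 6 GFP libraries, a separation found for 0.674% of genes downwards and 1.19% upwards. Gclm fell by 0.33 on the log2 scale, from 27.6 at the lowest, 38.1 at the median and 43.8 at the highest of the GFP libraries to 22.5 at the lowest, 29.3 at the median and 36.1 at the highest of the Cre libraries in CPM (adjusted p = 0.00035). Hmox1 changed by -0.33 ± 0.05 (SE, adjusted p = 0.00034), Slc7a11 by -0.24 ± 0.06 (SE, adjusted p = 0.0089) and Srxn1 by -0.21 ± 0.05 (SE, adjusted p = 0.012). Nfe2l2 rose by 0.15 ± 0.04 (SE, adjusted p = 0.014), from 80.8 at the lowest, 99.9 at the median and 121 at the highest to 88.2 at the lowest, 112 at the median and 131 at the highest (CPM). The changes of Gclc (-0.11 ± 0.05), Gss (0.01 ± 0.07) and Gsr (0.01 ± 0.06) did not pass the test. Within each library set 8 of the 10 were lower with Cre in Ldha f/f and in Nampt f/f cells. The summed chondrocyte markers were 68843 to 85644 CPM in GFP and 50506 to 78542 CPM in Cre libraries, and the sum of 4 endothelial markers 3.14 to 4.21 and 2.31 to 14.6 CPM. For 6 fibroblast and perichondrium markers it was 943 to 5159 CPM (median 4358) and 893 to 4967 CPM (median 3913). The part of these markers was not tested.

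Several of these calls did not hold when 1 library was left out. That of Txnrd1 (-0.15) was lost in each of the 12 such fits (log2 change -0.17 to -0.12, adjusted p up to 0.091), that of Nqo1 (-0.15) in 7 of the 12 (without any of the Ldha f/f and Nampt f/f libraries compared except the second Ldha f/f Cre library, adjusted p up to 0.12) and that of Nfe2l2 without the first Nampt f/f GFP library (adjusted p = 0.054). Gclc passed without the first Nfkbiz f/f Cre library (adjusted p = 0.038). By line, Hmox1 (-0.33) and Gclm (-0.34) were called lower in Ldha f/f cells, where 5.52% of genes were called. The Ldha f/f call of Gclm was lost without any 1 of the 4 libraries, and that of Hmox1 without either Cre library or the first GFP library (adjusted p up to 0.25). In Nampt f/f cells Gclm (-0.39), Hmox1 (-0.45), Nqo1 (-0.30) and Slc7a11 (-0.39) were called lower (14.4% of genes). Of these, Nqo1 was lost without any 1 of the 4 libraries and Slc7a11 without the first GFP or the second Cre library (adjusted p up to 0.12). With the replicate number as a block, Gclc (-0.17, adjusted p = 0.027), Txnrd1 (-0.11, adjusted p = 0.042) and Nfe2l2 (0.17, adjusted p = 0.01) were called in Nampt f/f cells too, which made 7 of 10 with 4311 in place of 2319 genes called, and over the 3 lines Txnrd1 was lost (-0.15, adjusted p = 0.056). In Nfkbiz f/f cells edgeR called 0 of 10 (0.26% of genes), and DESeq2 and limma-voom also 0. By edgeR, 4 members had an unadjusted p of at most 0.05, as had 910 of the 15356 genes tested.

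Under IL-1β the difference between Cre and GFP cells was larger and in 1 direction. All 10 genes were lower in Cre cells with IL-1β than in GFP cells with IL-1β over the 3 lines, where 17.9% of genes were called lower and 19.9% higher. The median log2 change of the 10 was -1.09, against -0.01 over all genes. For 7 of the 10 the 6 Cre libraries lay below all 6 GFP libraries (5.35% of genes), the exceptions being Nfe2l2, Gclm and Txnrd1. All 10 were also called lower within Ldha f/f cells (17% of genes), within Nampt f/f cells (23.4%) and within Nfkbiz f/f cells (9.2%). Mmp3, which IL-1β induces, was also lower with Cre under IL-1β, as was Nfkbiz in all 3 lines. Mmp3 was at 849 to 1817 CPM in the 6 GFP and 149 to 290 CPM in the 6 Cre libraries. The GFP libraries with IL-1β were those of the first comparison.

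Slc7a11 fell most of the 10. It stood at 36.9 and 37.7 in Ldha f/f, 31.1 and 28.0 in Nampt f/f and 17.4 and 16.8 in Nfkbiz f/f cells with Cre and IL-1β (CPM), all below the lowest GFP library with the cytokine. The fall was -2.66 ± 0.10 (SE, adjusted p = 8.2e-08) on the log2 scale. These 6 values also were below those of the same line with GFP and no cytokine (37.8 and 40.4 in Ldha f/f, 48.4 and 41.4 in Nampt f/f and 21.4 and 22.8 in Nfkbiz f/f cells).

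In glutathione synthesis, Gclc with Cre and IL-1β was at 63.4 and 61.2 in Ldha f/f, 71.4 and 67.9 in Nampt f/f and 47.0 and 56.5 in Nfkbiz f/f cells (CPM), below every GFP library with IL-1β, and its change was -1.15 ± 0.08 (SE, adjusted p = 3.1e-06). Gclm was at 50.1 and 49.9 in Ldha f/f, 66.4 and 64.2 in Nampt f/f and 24.2 and 23.2 in Nfkbiz f/f cells (CPM). The Nampt f/f Cre libraries of Gclm were above the Nfkbiz f/f GFP libraries with IL-1β, which is where its groups overlapped, and the change over lines was -1.04 ± 0.07 (SE, adjusted p = 2.3e-06). Gss was at 20.1 and 15.4 in Ldha f/f, 18.3 and 16.6 in Nampt f/f and 21.4 and 22.3 in Nfkbiz f/f cells (CPM) and changed by -0.67 ± 0.09 (SE, adjusted p = 0.00032). Its Nfkbiz f/f call (-0.42) was lost without either of the 2 Nfkbiz f/f libraries with GFP and IL-1β (adjusted p = 0.098 and 0.12).

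Of the reductases, Gsr was at 105 and 97.5 in Ldha f/f, 117 and 113 in Nampt f/f and 41.8 and 49.4 in Nfkbiz f/f cells with Cre and IL-1β (CPM). The lowest values were those of Nfkbiz f/f cells, and the change over lines was -0.82 ± 0.14 (SE, adjusted p = 0.0011). Srxn1 was at 135 and 133 in Ldha f/f, 186 and 178 in Nampt f/f and 45.8 and 41.9 in Nfkbiz f/f cells (CPM) and changed by -1.24 ± 0.20 (SE, adjusted p = 0.00093). As with Gsr, the Nfkbiz f/f libraries of Srxn1 were the lowest, here below the 53.9 and 56.1 CPM of the same line with GFP and no cytokine. Txnrd1 was at 247 and 257 in Ldha f/f, 291 and 287 in Nampt f/f and 134 and 142 in Nfkbiz f/f cells (CPM), with Nampt f/f Cre libraries above the Nfkbiz f/f GFP libraries, and changed by -0.71 ± 0.06 (SE, adjusted p = 1.7e-05).

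Hmox1 was at 407 and 398 in Ldha f/f, 391 and 369 in Nampt f/f and 507 and 434 in Nfkbiz f/f cells with Cre and IL-1β (CPM), each below the level of the same line with GFP and no cytokine, and changed by -1.55 ± 0.10 (SE, adjusted p = 3e-06). Nqo1 was at 64.3 and 60.7 in Ldha f/f, 45.7 and 42.5 in Nampt f/f and 43.1 and 26.5 in Nfkbiz f/f cells (CPM) and changed by -1.15 ± 0.16 (SE, adjusted p = 0.00038). The lowest single library of Nqo1 was the second of Nfkbiz f/f cells. Nfe2l2 had the smallest change of the 10, -0.42 ± 0.06 (SE, adjusted p = 0.00058), with 159.5 and 157 in Ldha f/f, 137 and 134 in Nampt f/f and 103 and 89.2 in Nfkbiz f/f cells (CPM). The Nfe2l2 groups overlapped, since the Ldha f/f Cre libraries were above the Nfkbiz f/f GFP libraries. In Ldha f/f cells its call (-0.32, adjusted p = 0.045) was lost in 3 of the 4 fits that left out 1 library, those without either Cre library with IL-1β or without the first GFP library with IL-1β (adjusted p up to 0.2).

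Within each library set all 10 were lower with Cre and IL-1β in Ldha f/f and in Nampt f/f cells. The summed chondrocyte markers were 26832 to 31571 CPM in the GFP and 15088 to 39923 CPM in the Cre libraries with IL-1β, and the sum of 4 endothelial markers, none of which was at 0 throughout, was 3.20 to 7.74 CPM in the former and 6.93 to 29.6 CPM in the latter. The sum of 6 fibroblast and perichondrium markers was 896 to 4161 CPM (median 3713) in the former and 851 to 2952 CPM (median 2449) in the latter. Their part in the result was not tested.

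**Figure D2:**
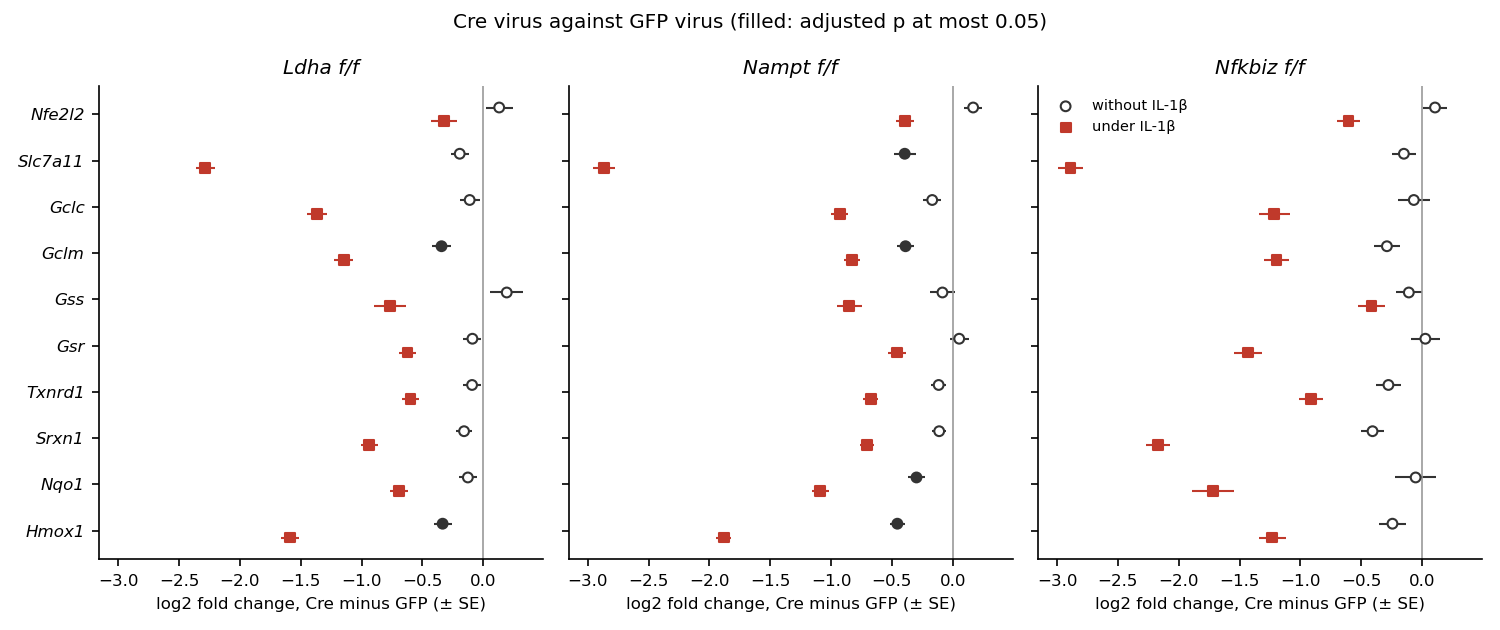
Effect of Cre on each of the 10 genes as log2 fold change ± SE (Cre minus GFP), by line, without and with IL-1β. Filled points passed the test at adjusted p of at most 0.05. Without IL-1β the points lie nearer 0. Those of Gclm and Hmox1 are filled in Ldha f/f cells and those of Gclm, Hmox1, Nqo1 and Slc7a11 in Nampt f/f cells. With IL-1β all 10 lie below 0 and are filled in all 3 lines.

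Whether Cre changed the response to IL-1β was tested as the difference between the IL-1β response of Cre cells and that of GFP cells. It rests on the same GFP libraries with IL-1β as the comparisons above. This difference was negative and called for 9 of 10 genes in Ldha f/f cells (5.6% of genes), for 10 of 10 in Nampt f/f cells (9.98%) and for 9 of 10 in Nfkbiz f/f cells (3.5%). The genes that did not pass were Nfe2l2 in Ldha f/f cells (-0.45 ± 0.15 SE, adjusted p = 0.096) and Gss in Nfkbiz f/f cells (-0.31 ± 0.15 SE, adjusted p = 0.33). Slc7a11 had the largest difference in every line, -2.09 ± 0.11 in Ldha f/f, -2.47 ± 0.13 in Nampt f/f and -2.74 ± 0.14 in Nfkbiz f/f cells. In the same order of lines the differences were -1.26, -0.76 and -1.15 for Gclc, -0.80, -0.44 and -0.91 for Gclm and -0.96, -0.77 and -0.31 for Gss. Those of the reductases were -0.53, -0.51 and -1.46 for Gsr, -0.78, -0.59 and -1.76 for Srxn1 and -0.51, -0.56 and -0.64 for Txnrd1. For Hmox1 they were -1.26, -1.43 and -0.99, for Nqo1 -0.56, -0.79 and -1.67 and for Nfe2l2 -0.45, -0.56 and -0.71. Calls lost when 1 library was left out were Txnrd1 in Ldha f/f cells (lost in 2 of 8 fits that left out 1 library, the second GFP with IL-1β or the second Cre library, log2 difference -0.61 to -0.44, adjusted p up to 0.053), Txnrd1 in Nfkbiz f/f cells (lost in 5 of 8, those without any 1 of the 4 GFP libraries or the first Cre library, log2 difference -0.70 to -0.56, adjusted p up to 0.11) and Nfe2l2 in Nfkbiz f/f cells (lost without the first GFP library with IL-1β or the second GFP library, log2 difference -0.82 to -0.61, adjusted p up to 0.069). The value of Nfe2l2 in Ldha f/f cells passed without the first GFP library (adjusted p = 0.029) and with the replicate block (-0.45, adjusted p = 0.0014).

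What was left of the response after Cre differed from gene to gene. In Ldha f/f Cre cells IL-1β still raised 6 of the 10 (Nfe2l2, Gclc, Gclm, Gsr, Txnrd1 and Srxn1), against 19.5% of genes called higher, and in Nampt f/f Cre cells it raised 6 of 10 (24.3%), which were the same genes. In Nfkbiz f/f Cre cells it raised 3 (Gclc, Gsr and Txnrd1, 11.7% of genes) and Nqo1 was lower (-0.93 ± 0.17 SE, adjusted p = 0.0022, 10.3% of genes called lower). Slc7a11, Hmox1 and Gss were called in none of the 3 lines, with log2 changes, in the order Ldha, Nampt and Nfkbiz, of 0.15, -0.17 and -0.22 for Slc7a11, of 0.21, 0.11 and -0.15 for Hmox1 and of -0.11, -0.05 and -0.05 for Gss. With the replicate number as a block, however, Hmox1 was called higher in Ldha f/f (0.21, adjusted p = 0.0053) and in Nampt f/f Cre cells (0.11, adjusted p = 0.0088), and Slc7a11 lower in the latter (-0.17, adjusted p = 0.038). For the other genes the log2 changes were 0.41, 0.25 and 0.13 for Nfe2l2, 0.42, 0.62 and 0.39 for Gclc, 0.59, 1.21 and 0.06 for Gclm and 1.22, 1.42 and 0.76 for Gsr in the same order. They were 1.02, 1.09 and 0.53 for Txnrd1, 1.14, 1.49 and 0.08 for Srxn1 and 0.07, -0.05 and -0.93 for Nqo1. In CPM, Gsr had the largest share of its response left of all 10 in Ldha f/f and in Nampt f/f cells. The rise of Gsr after Cre was 50.8% of its rise after GFP in Ldha f/f, 60.1% in Nampt f/f and 19.6% in Nfkbiz f/f cells. For Txnrd1 these shares were 49.2%, 47.2% and 29.6%, and for Srxn1 37.4%, 50.5% and 1.45%. For Slc7a11 they were 1.89%, -2.83% and -2.83%, where a negative share is a lower level with IL-1β than without. The calls of Nfe2l2 after Cre were lost in 3 of 4 fits that left out 1 library in Ldha f/f and in Nampt f/f cells (all but the first Cre library, adjusted p up to 0.17), and that of Gclc in Nfkbiz f/f cells without the second Cre library or the second Cre library with IL-1β (adjusted p up to 0.32).

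**Figure D3:**
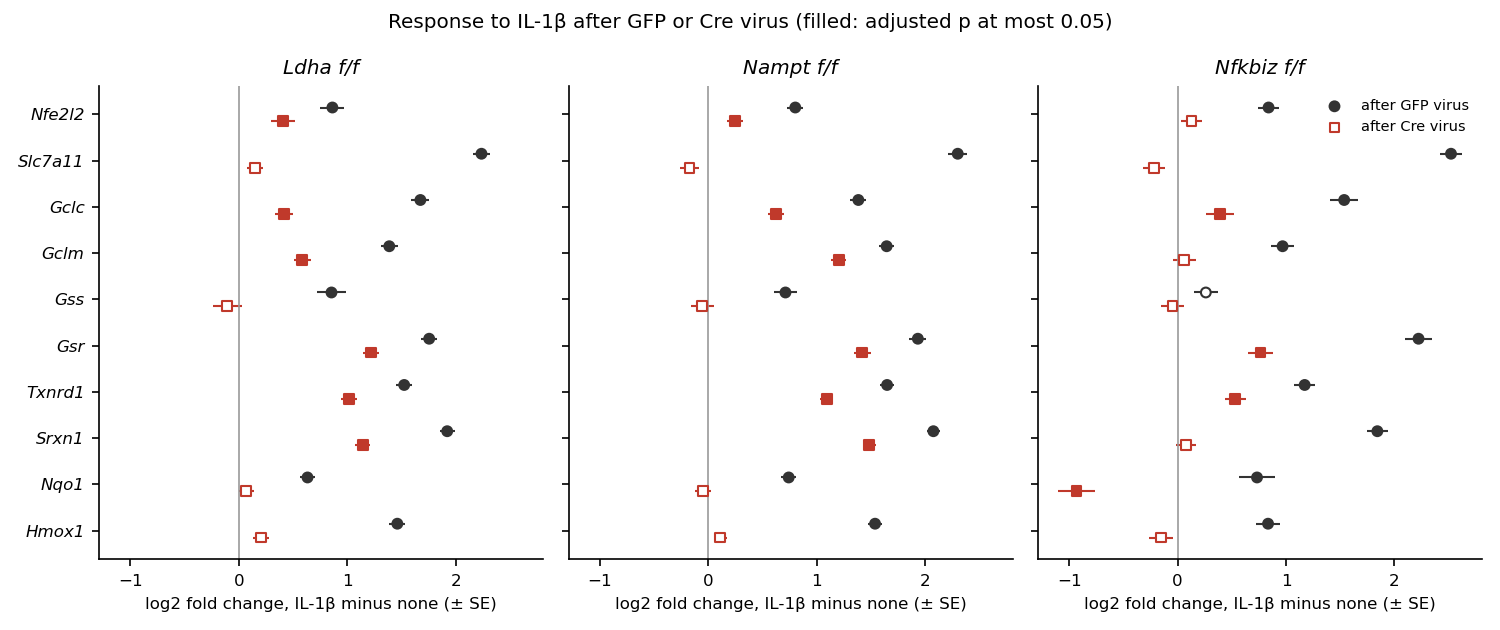
IL-1β response of each of the 10 genes as log2 fold change ± SE (IL-1β minus no IL-1β), by line, in GFP cells and in Cre cells. Filled points passed the test at adjusted p of at most 0.05. In GFP cells all but Gss of Nfkbiz f/f cells are filled above 0, and after Cre the points of Slc7a11, Hmox1 and Gss are open.

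The 3 lines were compared in 1 fit of the 24 floxed libraries, as differences between lines of the IL-1β response and of the Cre effect. The IL-1β response of GFP cells did not pass the test for Ldha f/f against Nampt f/f cells for any of the 10 (0.012% of genes called by edgeR, 0 members by DESeq2 and by limma-voom). By edgeR, 2 members had an unadjusted p of at most 0.05, as had 1047 of the 16727 genes tested. Against Nfkbiz f/f cells the IL-1β response was larger in Ldha f/f cells for 4 genes (0.676% of genes called larger), namely Hmox1 (0.64 ± 0.10 SE, adjusted p = 0.00058), Gss (0.60 ± 0.14), Gclm (0.43 ± 0.10) and Txnrd1 (0.36 ± 0.10). It was larger in Nampt f/f than in Nfkbiz f/f cells for 3 (1.33% of genes), namely Hmox1 (0.72 ± 0.10 SE, adjusted p = 0.00013), Gclm (0.69 ± 0.10 SE, adjusted p = 0.00028) and Txnrd1 (0.49 ± 0.10 SE, adjusted p = 0.0038). The Ldha f/f differences of Gclm, Gss and Txnrd1 were lost in 6, 4 and 7 of the 8 fits that left out 1 library. Gclm kept its call only without the second Ldha f/f GFP or the second Nfkbiz f/f GFP library with IL-1β, and Txnrd1 only without the first Nfkbiz f/f GFP library. Gss lost it without the first GFP library of either line, the second Ldha f/f or the first Nfkbiz f/f GFP library with IL-1β. The adjusted p rose up to 0.21. Gsr (-0.46), not called, passed without the first Nfkbiz f/f GFP library (adjusted p = 0.017). The effect of Cre without IL-1β did not pass the test between any 2 lines for any of the 10 by edgeR or DESeq2 (0.0897%, 1.9% and 5.04% of genes called for Ldha f/f against Nampt f/f, Ldha f/f against Nfkbiz f/f and Nampt f/f against Nfkbiz f/f), with 0, 2 and 3 members at an unadjusted p of at most 0.05, and limma-voom called 1 in the last. In the same order, 842, 1824 and 2689 of the 16727 genes tested had an unadjusted p of at most 0.05 by edgeR.

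Under IL-1β the Cre effect differed more between lines, and Nfkbiz f/f cells stood apart. Srxn1 fell less in Ldha f/f than in Nfkbiz f/f cells by 1.20 ± 0.09 (SE, adjusted p = 1.2e-09) and less in Nampt f/f than in Nfkbiz f/f cells by 1.42 ± 0.09 (SE, adjusted p = 4.4e-11). The same held for Gsr, by 0.77 ± 0.12 (SE, adjusted p = 4e-05) and 0.92 ± 0.12 (SE, adjusted p = 2.6e-06), and for Nqo1, by 0.99 ± 0.17 (SE, adjusted p = 9.4e-05) and 0.59 ± 0.17 (SE, adjusted p = 0.0091). The opposite order was found for Hmox1, which fell more in Ldha f/f (-0.40 ± 0.10) and in Nampt f/f (-0.70 ± 0.10) than in Nfkbiz f/f cells, and for Gss (-0.39 ± 0.14 and -0.48 ± 0.14). In all, 7 genes differed in Ldha f/f from Nfkbiz f/f cells (27% of genes), with Slc7a11 (0.57 ± 0.11) and Txnrd1 (0.28 ± 0.10) besides these 5, and 6 in Nampt f/f from Nfkbiz f/f cells (36.3%), with Gclm (0.32 ± 0.10) besides these 5. For Ldha f/f against Nampt f/f cells Slc7a11 alone differed, by 0.59 ± 0.11 (SE, adjusted p = 0.01), where 0.538% of genes did. That call was lost in 5 of the 8 fits that left out 1 library, those without either GFP library or the second Cre library of Ldha f/f cells or the second GFP or Cre library of Nampt f/f cells, all with IL-1β (adjusted p up to 0.11). Against Nfkbiz f/f cells, the Ldha f/f call of Txnrd1 was lost in 7 of 8 such fits (all but that without the second Nfkbiz f/f Cre library), that of Gss in 5 of 8 (without either Nfkbiz f/f GFP library or the second Nfkbiz f/f Cre, Ldha f/f GFP or Ldha f/f Cre library), and the Nampt f/f call of Gclm without the second GFP library with IL-1β of either line (adjusted p up to 0.12). Without the first Nfkbiz f/f Cre library with IL-1β, Nfe2l2 and Gclc passed against Ldha f/f cells and Nfe2l2 against Nampt f/f cells, and without the second, Gclc and Txnrd1 passed against Nampt f/f cells (adjusted p = 0.014 to 0.05). Nfkbiz f/f libraries were all of 1 set, so for these differences the line and the set cannot be fully told apart.

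In wild-type cells the question was what FX11 does with and without IL-1β. No member was called in any of the 4 comparisons by edgeR, in which 0 of the 15461 genes tested passed. Of the 10, 2 had an unadjusted p of at most 0.05 for IL-1β, 1 for FX11, 1 for FX11 under IL-1β and 6 for both against untreated, and over all genes 153, 68, 102 and 860 did. DESeq2 called 6, 2, 1 and 144 genes, among them 3 members for both agents against untreated (Gclm, Srxn1 and Slc7a11), and limma-voom called no member. The median fitted log2 changes of the 10 were 0.59, 0.61, 0.64 and 1.28. The signs of several uncalled values turned when 1 library was left out, down to -0.76 for Nqo1, -0.25 for Gss, -0.21 for Nfe2l2, -0.17 for Gsr and -0.10 for Hmox1 with IL-1β, -0.22 for Gss with FX11, and -0.51 for Nfe2l2 and -0.45 for Gsr with FX11 under IL-1β. Without both libraries that went against their labels no member was called, the medians were 0.93, 0.56, 0.23 and 1.28, and Hmox1 with IL-1β and Nfe2l2 and Gsr with FX11 under IL-1β were below 0.

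The libraries are therefore described one by one. Slc7a11 was at 23.1 and 16.9 CPM in the untreated libraries, 29.1 and 70.7 in those labelled FX11, 87.8 and 33.7 in those labelled IL-1β and 134 and 130.2 in those labelled with both. Both libraries with the 2 agents were above all others for this gene. Hmox1 was at 449 and 322, 910.2 and 455, 359.7 and 744 and 745 and 1947 CPM in the same order. Its highest library was the second with both agents. Nqo1 was at 65.2 and 45.7, 74.3 and 93.4, 127 and 32.7 and 190.1 and 79.2 CPM, and Srxn1 at 61.1 and 32.9, 95.8 and 72.6, 89.7 and 67.6 and 117 and 142 CPM. For Nqo1 the pair labelled IL-1β and the pair labelled with both each spread widely, and for Srxn1 both libraries with the 2 agents were the highest. Gclc was at 41.9 and 22.7, 63.7 and 34.8, 61.4 and 36.7 and 83.6 and 59.8 CPM, and Gsr at 40.4 and 29.6, 41.3 and 110.2, 163 and 31.0 and 143 and 93.7 CPM. Like Mmp3, Gsr in the second set was high in the library labelled FX11 and low in the one labelled IL-1β. Slc7a11, Nqo1 and Nfe2l2 (107 and 73.2 CPM) were also higher in the former, as were Nfkbiz (166 and 9.86) and Ldha (1670 and 693). Hmox1, Gclc and Gclm (43.4 and 49.7) were higher in the latter. For Txnrd1 (115 and 110), Srxn1 and Gss (15.4 and 15.4) the 2 libraries were close. Over the 8 libraries Nfe2l2 ranged from 73.2 to 203 CPM, Txnrd1 from 71.8 to 211, Gclm from 32.9 to 96.3 and Gss from 15.4 to 27.6 CPM, and Gclm and Txnrd1 were highest in both libraries with the 2 agents.

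In the first set, where Mmp3 did not go against the labels, there was 1 library a condition and so no test, and the intervals are 95% intervals for counting error only. With FX11 alone Hmox1 was 2.03 (1.99 to 2.07) times its untreated level, Srxn1 1.57 (1.48 to 1.65) times and Gclc 1.52 (1.42 to 1.62) times, while Gsr was at 1.02 (0.95 to 1.10) and Nfe2l2 at 0.99 (0.94 to 1.04) times. The ratios of the others were 1.14 (1.08 to 1.21) for Nqo1, 1.26 (1.15 to 1.38) for Slc7a11, 1.26 (1.17 to 1.36) for Gclm, 1.31 (1.19 to 1.44) for Gss and 1.41 (1.36 to 1.47) for Txnrd1. IL-1β alone gave another order. Gsr was 4.03 (3.80 to 4.27) times, Slc7a11 3.79 (3.51 to 4.10) times, Nfe2l2 2.13 (2.05 to 2.22) times and Nqo1 1.95 (1.86 to 2.05) times the untreated level, and Hmox1 was at 0.80 (0.78 to 0.82) times. Srxn1 was at 1.47 (1.39 to 1.55), Gclc at 1.47 (1.37 to 1.57), Gclm at 1.35 (1.25 to 1.45), Gss at 1.07 (0.97 to 1.18) and Txnrd1 at 1.46 (1.40 to 1.52) times. Against the library with IL-1β alone, the library with both agents had 2.07 (2.03 to 2.11) times the Hmox1, 1.53 (1.46 to 1.59) times the Slc7a11 and 1.49 (1.44 to 1.55) times the Nqo1, but 0.88 (0.85 to 0.91) times the Gsr and 0.89 (0.86 to 0.92) times the Nfe2l2. For Srxn1 this ratio was 1.31 (1.25 to 1.37), for Gclc 1.36 (1.29 to 1.44), for Gclm 1.43 (1.35 to 1.51), for Gss 1.21 (1.11 to 1.33) and for Txnrd1 1.19 (1.16 to 1.23). The wild-type library with IL-1β in this set had less Hmox1 than the untreated one, whereas in floxed GFP cells IL-1β raised Hmox1, a contrast that was not tested.

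**Figure D4:**
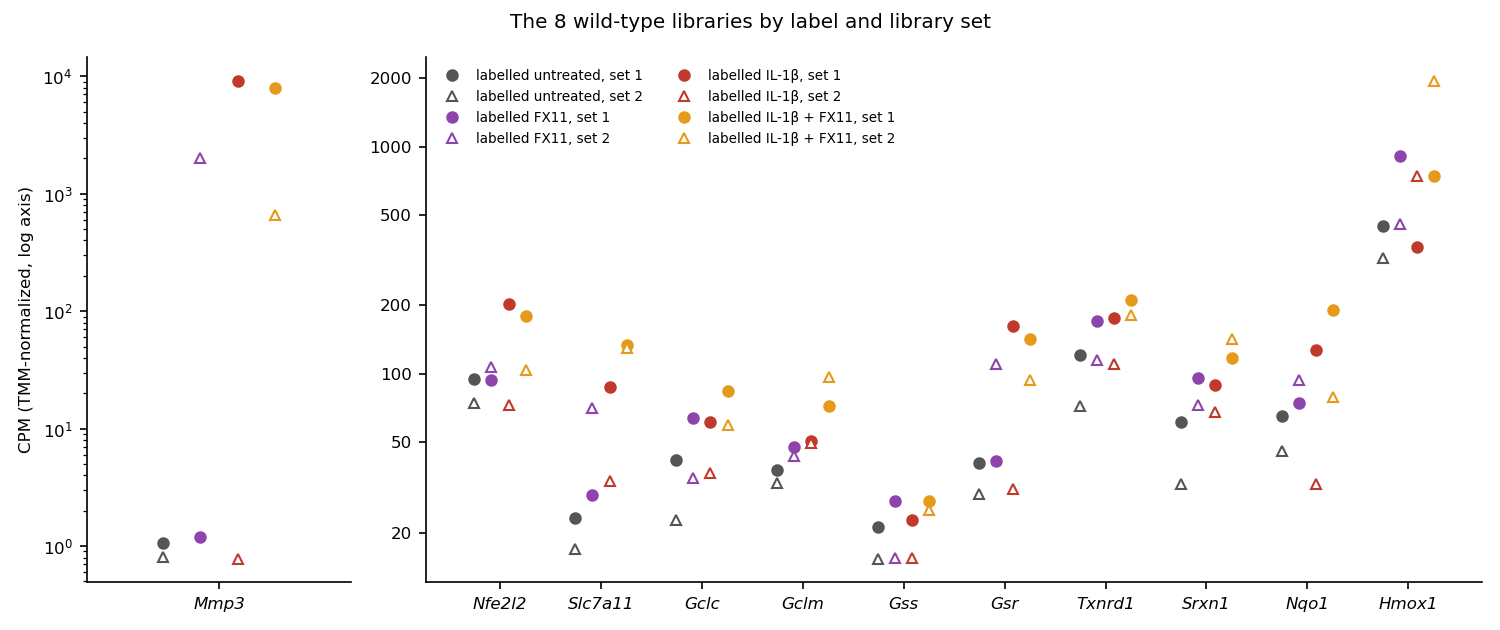
Level of Mmp3 and of the 10 genes (TMM CPM, log axis) in the 8 wild-type libraries, by labelled treatment. Filled circles are the first and open triangles the second set. The Mmp3 panel shows the second-set library labelled FX11 high and the one labelled IL-1β low, against their labels.

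Related genes were read beside these 10 from 4 lists, whose medians are set against the -0.01 of all genes both for IL-1β and for Cre under IL-1β. Of 28 other NRF2 targets, 26 were tested, and IL-1β raised 22 and lowered 3 (median log2 change 0.94) in floxed GFP cells, where 28% of all genes were called higher and 28.3% lower. The ferritin heavy chain Fth1 (2.94 ± 0.05 SE, adjusted p = 3.2e-17) and the glutathione conjugate exporter Abcc1 (1.38 ± 0.04 SE, adjusted p = 1.5e-13) were called most firmly among those higher, and the isocitrate dehydrogenase Idh1 (-0.50 ± 0.05) and the epoxide hydrolase Ephx1 (-0.35 ± 0.04) among those lower. Under IL-1β, Cre lowered 15 of these targets and raised 1, Ephx1 (median -0.37, with 17.9% of all genes called lower and 19.9% higher), with Prdx6, a peroxiredoxin, at -1.14 ± 0.06 (SE, adjusted p = 3.8e-07) and Abcc1, also lower, next (adjusted p = 1.4e-06). By line, Cre under IL-1β lowered 11 and raised 5 of 27 (median -0.25) in Ldha f/f, 13 and raised 9 of 28 (median -0.27) in Nampt f/f and 19 and raised 0 of 26 (median -0.72) in Nfkbiz f/f cells, where 17%, 23.4% and 9.2% of all genes were called lower and 16.9%, 25% and 8.16% higher. Without IL-1β Cre raised 3, among them Trim16 (0.80 ± 0.09) and Ephx1 (0.35 ± 0.05), and lowered 5, among them the malic enzyme gene Me1 (-0.27 ± 0.05) and Prdx6 (-0.19 ± 0.04), where 9.59% of all genes were called higher and 8.21% lower.

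In Cre cells IL-1β raised 20 of the other NRF2 targets in Ldha f/f cells and 19 in Nampt f/f cells (2 and 2 lower), of 27 and 28 tested. In Nfkbiz f/f cells it raised 4 and lowered 5 of 26. Of all genes, 19.5%, 24.3% and 11.7% were called higher in these lines and 16.3%, 19.6% and 10.3% lower. The difference between lines in these counts was not tested.

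Genes of glutathione supply and use did not move as a block. Of 25, 24 were tested, and IL-1β raised 5 and lowered 11 (median -0.18), with 28% of all genes called higher and 28.3% lower. Glutaredoxin Glrx (2.11 ± 0.11 SE, adjusted p = 4e-11) and the microsomal transferase Mgst1 (1.54 ± 0.19 SE, adjusted p = 2.3e-06) rose, and Chac1, which degrades glutathione (-0.86 ± 0.04 SE, adjusted p = 5.2e-12), and the endoplasmic reticulum peroxidase Gpx7 (-0.78 ± 0.05 SE, adjusted p = 2.6e-09) fell. With Cre under IL-1β, 4 were higher and 10 lower (median -0.22), against 19.9% and 17.9% of all genes. Those called most firmly were Gpx4 (0.34 ± 0.07) and Ggt1 (1.28 ± 0.33) upwards and, downwards, the secreted peroxidase Gpx3 (-1.18 ± 0.14) and Slc3a2 (-0.45 ± 0.08), the heavy chain that pairs with SLC7A11. Without IL-1β, Cre raised 1 (Anpep, 0.27 ± 0.08) and lowered 6, with the amino acid carriers Slc1a5 (-0.32 ± 0.05) and Slc1a4 (-0.25 ± 0.04) first, against 9.59% and 8.21% of all genes.

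Targets of ATF4, the stress factor that also acts on Slc7a11, were listed together with Atf4 itself. Most of this list went the other way from Slc7a11 under IL-1β. The cytokine lowered 12 of the 14 and raised 0 (median -0.43, with 28.3% of all genes called lower), Nupr1 (-1.40 ± 0.06 SE, adjusted p = 6.5e-12) and Ddit3 (-1.20 ± 0.05 SE, adjusted p = 1.9e-12) first. Cre without IL-1β lowered 9 (8.21% of all genes), among them Trib3 (-0.27 ± 0.05) and Mthfd2 (-0.23 ± 0.05). Cre under IL-1β lowered 9, with Vldlr (-0.50 ± 0.06) and the serine hydroxymethyltransferase Shmt2 (-0.58 ± 0.09) first, and raised 2, Phgdh (0.16 ± 0.05) and Sesn2 (0.24 ± 0.08), for a median of -0.36, where 17.9% of all genes were called lower and 19.9% higher. By line, Cre under IL-1β lowered 10 and raised 0 of 14 (median -0.52) in Ldha f/f, 11 and raised 0 of 14 (median -0.60) in Nampt f/f and 1 and raised 1 of 14 (median -0.0021) in Nfkbiz f/f cells. Of all genes, 17%, 23.4% and 9.2% were called lower in these lines and 16.9%, 25% and 8.16% higher.

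Of 14 regulators and partners of NRF2, IL-1β raised 7 and lowered 5 (median 0.15), against 28% and 28.3% of all genes. The small MAF gene Maff (1.86 ± 0.08 SE, adjusted p = 4.4e-12) and the repressor Bach1 (0.95 ± 0.06 SE, adjusted p = 2.4e-10) rose, and the ubiquitin ligase scaffold Cul3 (-0.33 ± 0.05) and the related factor Nfe2l1 (-0.26 ± 0.04) fell. Under IL-1β, Cre raised Bach2 (0.79 ± 0.17) and Mafk (0.63 ± 0.17) and lowered Nfe2l3 (-0.77 ± 0.17) and Mafg (-0.31 ± 0.08), the median being -0.04 (19.9% of all genes were called higher and 17.9% lower). Without IL-1β, Nfe2l1 (-0.14 ± 0.04) was the only one of the 14 called, where 17.8% of all genes were called in either direction and 8.21% lower. Keap1 did not pass the test with Cre, either without IL-1β (-0.01 ± 0.05 SE, adjusted p = 0.94) or under it (0.19 ± 0.09 SE, adjusted p = 0.11), although it was called higher in Nampt f/f cells under IL-1β (0.49 ± 0.08 SE, adjusted p = 0.00032). In wild-type cells no gene of the 4 lists was called for FX11 or for both agents by edgeR. All comparisons of IL-1β and of Cre under IL-1β use the same 6 GFP libraries with IL-1β.

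**Figure D5:**
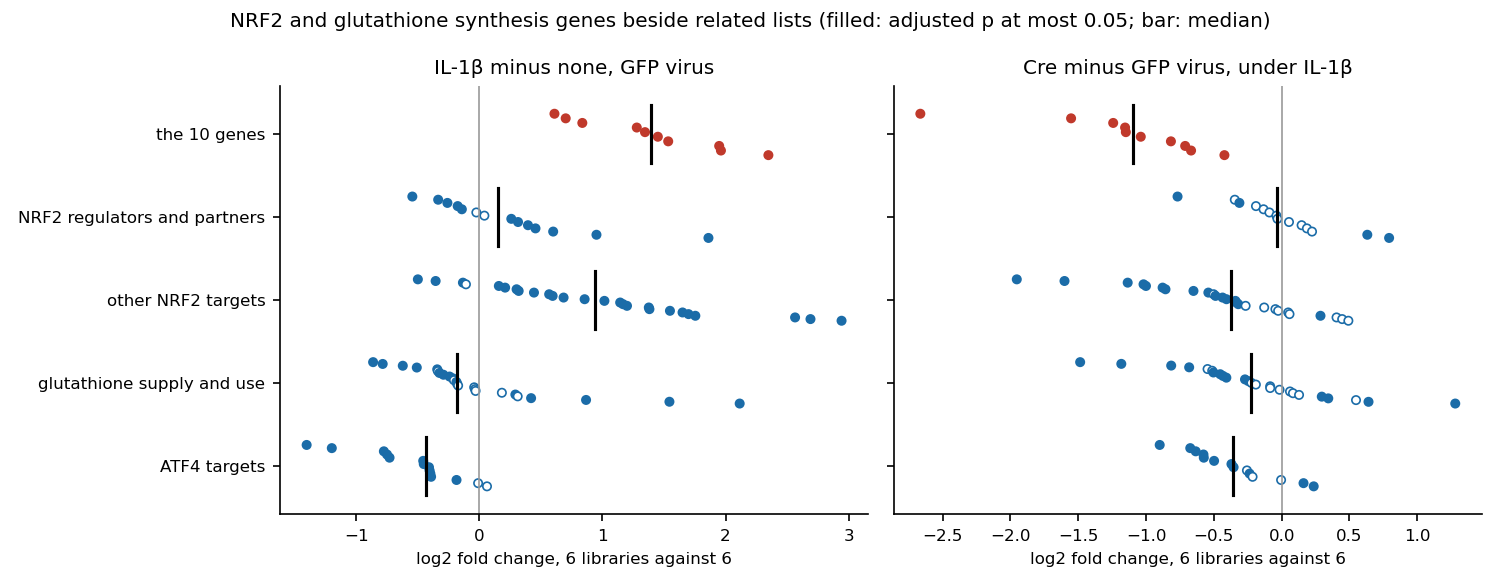
Log2 fold changes of the 10 genes and of the 4 related lists over the floxed lines, for IL-1β in GFP cells and for Cre under IL-1β. Each point is 1 gene and the black bar is the median of its list. The 10 genes lie above 0 with IL-1β and below 0 with Cre under IL-1β, while the ATF4 targets lie mostly below 0 in both.

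The genes most like Nqo1 were sought over the 16 condition means of log2 CPM, each line centred on its own mean, among 13919 genes. They were Gm16365 (r = 0.94), Itpr2 (r = 0.92), Cnbp (r = 0.92), Emb (r = 0.91) and Tmem60 (r = 0.91). Of the other 9 members, Slc7a11 came nearest at rank 13 (r = 0.89), then Hmox1 at rank 18 (r = 0.89) and Gss at rank 91 (r = 0.83), and Gsr was farthest at rank 1142 (r = 0.60). Over the 45 pairs of members r ran from 0.60 (Nqo1 with Gsr) to 0.98 (Gsr with Txnrd1), with a median of 0.89. These correlations have no p-value, since all of them rest on the same libraries and scaling. The 2 wild-type libraries that went against their labels were among these libraries.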

How the data were processed

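Per the labels, total RNA of primary chondrocytes was depleted of ribosomal RNA and sequenced. The submitters' processing notes name bcl2fastq, STAR (2.0.4b), Subread, featureCounts (1.45) and the mouse build GRCm38. The authors deposited whole-number counts per gene for each library, used here as deposited, beside CPM and RPKM, which the authors computed and which entered no test. RPKM printed here were computed from TMM CPM and the deposited gene length. Symbols from the reference annotation matched 40254 of the 41388 gene IDs.

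Genes of ribosomal RNA (355) were left out. The gene with the most reads, Gm26917, was kept and held 5.135% to 11.87% of the counts of a library. Its share was highest in the second Nfkbiz f/f library with Cre and IL-1β. Genes had to exceed 1 CPM in at least 1 library (groups of 2) or 5 libraries (groups of 6). The test was the quasi-likelihood test of edgeR (4.0.16, R 4.3.3), two-sided, with TMM factors and Benjamini-Hochberg adjustment over all genes tested, and a gene was called at an adjusted p of at most 0.05. Comparisons within a line used that line's 8 libraries, comparisons over lines used 12 libraries with line and library set as covariates, and differences between lines used all 24 floxed libraries. Alternatives were RLE factors, filterByExpr, no filter, DESeq2 (1.42.0), limma voomWithQualityWeights (3.58.1), a replicate block, no set covariate and leaving out each library. The comparison of IL-1β after Cre, the fits that left out 1 library for the differences between lines and the fits without both wild-type libraries were added after the data were seen. Of the fits, only those of IL-1β in Ldha f/f cells and of IL-1β over the 3 lines were tried on simulated counts, with edgeR. The simulated counts had the same dispersion for every gene and no effect of line or set. Other software was Python (3.11.15), pandas (2.3.3), numpy (2.4.6) and matplotlib (3.10.9).

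The members and lists were chosen with earlier results of these data known. All members were tested in every comparison, and members not named in one are given there by counts or in a plot. Of each list, Keap1 and the 2 called genes with the smallest adjusted p in each direction are named. The 3 deleted genes and Mmp3 serve as checks, and the 5 genes most correlated with Nqo1 are named. Libraries were grouped by their labels alone, and the library set is the series of numbers in the sample titles. Intervals of ratios between 2 libraries cover counting error only. Libraries of the first set had median counts of 36042740 and those of the second 22985557.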

Additional observations from a re-analysis of the deposited data

Results flagged for a closer look

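The differences between lines that passed the test are listed here as log2 differences, first line minus second, from 1 fit of the 24 floxed libraries (edgeR, Benjamini-Hochberg). For the IL-1β response of GFP cells, Ldha f/f minus Nfkbiz f/f cells gave 0.64 for Hmox1, 0.60 for Gss, 0.43 for Gclm and 0.36 for Txnrd1. Nampt f/f minus Nfkbiz f/f cells gave 0.72 for Hmox1, 0.69 for Gclm and 0.49 for Txnrd1.

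For the effect of Cre under IL-1β, Ldha f/f minus Nampt f/f cells gave 0.59 for Slc7a11. Ldha f/f minus Nfkbiz f/f cells gave 1.20 for Srxn1, 0.99 for Nqo1, 0.77 for Gsr, 0.57 for Slc7a11, 0.28 for Txnrd1, -0.39 for Gss and -0.40 for Hmox1. Nampt f/f minus Nfkbiz f/f cells gave 1.42 for Srxn1, 0.92 for Gsr, 0.59 for Nqo1, 0.32 for Gclm, -0.48 for Gss and -0.70 for Hmox1. Positive values here mean a smaller fall with Cre in the first line, and negative values a larger one.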

How the results depend on the processing

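No called value of a member changed sign under any alternative run, although uncalled values did. Counts of members called changed by more than 1.5 times, or to or from 0, in these cases. For both agents in wild-type cells DESeq2 called 3 in place of 0. For Cre in Ldha f/f cells limma-voom called 1 in place of 2, and leaving out 1 library gave 0 to 1. For Cre in Nampt f/f cells the replicate block gave 7 in place of 4, and leaving out 1 library 2 to 3. For Cre over the lines leaving out 1 library gave 4 to 7 in place of 7, with 4 without the first Nampt f/f GFP library. For the IL-1β response of Ldha f/f against Nfkbiz f/f cells there were 2 without the set covariate in place of 4, and 1 to 3 without 1 library. For that of Nampt f/f against Nfkbiz f/f cells limma-voom called 5 in place of 3. For the Cre effect of these lines without IL-1β it called 1 in place of 0. For the Cre effect under IL-1β of Ldha f/f against Nampt f/f cells limma-voom called 5 and the fit with no filter 2 in place of 1, and leaving out 1 library gave 0 to 1. Smaller moves came from leaving out 1 library. Counts were 8 to 9 in place of 9 for IL-1β in Nfkbiz f/f cells, 9 to 10 and 9 to 10 in place of 10 for Cre under IL-1β in Ldha f/f and Nfkbiz f/f cells, and 8 to 10 and 7 to 9 in place of 9 for the difference of IL-1β responses there. For IL-1β after Cre they were 5 to 6 in place of 6 in Ldha f/f and in Nampt f/f cells and 3 to 4 in place of 4 in Nfkbiz f/f cells. For the Cre effect under IL-1β against Nfkbiz f/f cells they were 5 to 8 for both other lines, in place of 7 and 6. The cause was not tested. Same-numbered libraries of Ldha f/f and Nampt f/f cells deviated together over 9553 genes (r = 0.428 to 0.701 and 0.477 to 0.646), those of wild-type cells with r = -0.265 to 0.728, but the labels pair none. The replicate block raised calls over all genes from 877 to 1994 for Cre in Ldha f/f cells, from 2319 to 4311 for Cre in Nampt f/f cells, and for the difference of IL-1β responses from 1825 to 3374 and from 3552 to 5648. It changed the calls of 8 member values (Hmox1 in 2 and Nfe2l2 in 2 comparisons, Txnrd1 in 2, Gclc and Slc7a11) and of no other member. Counts over all genes moved by more than 1.5 times elsewhere as follows. For IL-1β in wild-type cells 0 genes were called, and 6 with DESeq2, 1 with both wild-type libraries left out. For FX11 in wild-type cells 0 genes were called, and 2 with DESeq2. For FX11 under IL-1β in wild-type cells 0 genes were called, and 1 with DESeq2. For both agents in wild-type cells 0 genes were called, and 144 with DESeq2, 8 with no filter, 1 with both wild-type libraries left out. For Cre in Nfkbiz f/f cells 40 genes were called, and 71 with DESeq2, 170 with no filter. For the difference of IL-1β responses in Nfkbiz f/f cells 797 genes were called, and 1325 with no filter. For Cre under IL-1β over the lines 5489 genes were called, and 8480 with limma-voom. For the IL-1β response of Ldha f/f minus Nampt f/f cells 2 genes were called, and 7 with DESeq2, 32 with limma-voom, 1 with filterByExpr, 47 with no filter, 1 with no set covariate. For the Cre effect under IL-1β of Ldha f/f minus Nampt f/f cells 90 genes were called, and 175 with DESeq2, 666 with limma-voom, 353 with no filter, 23 with no set covariate. For the Cre effect of Ldha f/f minus Nampt f/f cells 15 genes were called, and 32 with limma-voom, 59 with no filter, 5 with no set covariate. For the IL-1β response of Ldha f/f minus Nfkbiz f/f cells 404 genes were called, and 661 with limma-voom, 248 with no set covariate. For the IL-1β response of Nampt f/f minus Nfkbiz f/f cells 670 genes were called, and 1233 with limma-voom, 1032 with no filter, 444 with no set covariate. For the Cre effect of Ldha f/f minus Nfkbiz f/f cells 317 genes were called, and 511 with no filter, 180 with no set covariate. Of 182 member values, 175 kept direction and call with DESeq2, 180 with RLE factors, 181 with filterByExpr, 172 with no filter and 169 with limma-voom, and of 1204 values without 1 library 1104 did. No block could be fitted within Nfkbiz f/f cells, whose numbers were given in accession order.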

Other observations

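Sequences of the related lists were searched as for the members. Either core was held by 12 of 22 other NRF2 targets with a window (54.5%), 6 of 12 regulators and partners (50%), 7 of 21 genes of glutathione supply and use (33.3%) and 5 of 12 ATF4 targets (41.7%), against 30.8% of all genes. These are counts of letters, with no test.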
